A study of Homo sapiens with 4 samples.

Results

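The mitochondrial ribosomal protein genes were taken as all gene symbols that start with MRPL or MRPS followed by a number in the 4 tables of unique molecular identifiers (UMIs). There were 77 such genes among the 18131 genes listed, and all 77 were listed in every table. The rule matched no pseudogene and no antisense symbol. By subunit, 50 were counted with the large subunit (every MRPL gene with MRPS30 and MRPS18A, whose proteins sit there despite the name). The other 27 MRPS genes were counted with the small subunit by symbol alone, MRPS36 among them, and their place in the particle was not checked. By the number in the symbol, 46 were counted as having a bacterial counterpart (MRPL up to 36 and MRPS up to 21, with MRPL47, MRPS24 and MRPS28). The other 31 were counted as without, although they include MRPS18A, a paralog of bacterial S18.

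The mitochondrial ribosome translates the few proteins encoded in mitochondrial DNA, which are core subunits of the respiratory chain and of ATP synthase. Its own proteins are encoded in the nucleus, made by cytosolic ribosomes and imported, so its assembly joins nuclear and mitochondrial gene expression. Cytosolic ribosomal proteins (RPL and RPS genes) come from a separate set of nuclear genes, and many of their mRNAs begin with a pyrimidine tract (the 5' TOP) through which growth signals act on their translation.

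HCC1143 is an established cell line from a triple-negative breast carcinoma. The cells attached for 24 h and then received either DMSO as the solvent control or 1 nM of paclitaxel, a taxane that stabilises microtubules, and were collected after a further 24 h or 72 h. Each group was 1 10x Chromium library of this single line, and all groups grew in the same medium with serum; no group is a replicate of another, and no untreated sample from the start of treatment was analysed here.

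After filtering, 520 to 1101 cells were kept per library, with 34850724 to 72024235 UMIs in all and medians of 54864 to 59670 UMIs per cell. At most 4 cell barcodes were shared by any pair of libraries. The epithelial markers (5 of 5) and basal markers (4 of 4) were listed in every library, at summed levels of 1533 to 2730 and 2506 to 4412 counts per 1000000 UMIs (CPM). Of 3 receptor genes checked, PGR, the progesterone receptor gene, was not listed. The other 2, ESR1 and ERBB2, were listed in every library and summed to 20.7 to 24.0 CPM. Leukocyte markers summed to 5.77 to 20.4 CPM, endothelial markers to 0.278 to 1.66 CPM, and fibroblast markers, from COL1A1 alone, to 10.0 to 13.9 CPM, with CD3E, PECAM1, COL1A2, DCN and PDGFRB listed in none. All levels below are CPM of a library's UMIs, summed across its kept cells. The UMIs count molecules at transcript ends, so they were not divided by length. Brackets give exact 95% intervals for counting error only, and no difference has a replicate check.

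The 6 promoters printed here belong to the 3 members with the lowest and the 3 with the highest log2 ratio of DMSO at 72 h over DMSO at 24 h among those with a RefSeq promoter entry and an average of 10 CPM or more. They are shown because that ratio is the largest difference in the series for these genes. Each line gives the 100 bases before the RefSeq start on GRCh38.p14, 5' to 3' on the gene's strand. Capitals mark an ETS-type motif (CCGGAAGT) or a CCAAT box.
MRPL52, chr14:22829787-22829886, plus strand: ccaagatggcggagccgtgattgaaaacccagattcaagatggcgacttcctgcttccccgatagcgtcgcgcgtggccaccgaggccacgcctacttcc
MRPL20, chr1:1407294-1407393, minus strand: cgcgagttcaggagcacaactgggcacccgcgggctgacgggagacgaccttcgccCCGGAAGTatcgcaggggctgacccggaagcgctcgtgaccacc
MRPL18, chr6:159789712-159789811, plus strand: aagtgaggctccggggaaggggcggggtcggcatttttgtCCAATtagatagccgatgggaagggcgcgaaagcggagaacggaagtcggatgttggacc
MRPL45, chr17:38297068-38297167, plus strand: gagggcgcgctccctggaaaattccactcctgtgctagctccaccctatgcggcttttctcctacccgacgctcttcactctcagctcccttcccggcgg
MRPS27, chr5:72320241-72320340, minus strand: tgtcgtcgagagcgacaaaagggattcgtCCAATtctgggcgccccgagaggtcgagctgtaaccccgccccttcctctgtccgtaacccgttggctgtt
MRPS18B, chr6:30617740-30617839, plus strand: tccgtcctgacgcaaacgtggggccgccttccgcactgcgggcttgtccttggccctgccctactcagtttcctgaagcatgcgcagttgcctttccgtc
The first 3 were lower at 72 h in DMSO and the last 3 were not. The printed stretch of MRPL20 holds the ETS-type motif, and MRPL52 holds it outside the printed bases, within the 300-base promoter described at the end. A CCAAT box occurs both in MRPL18 and in MRPS27, which lie at opposite ends of that ranking.

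Together the 77 genes made up 0.829% of UMIs with DMSO and 0.703% with paclitaxel at 24 h. At 72 h they made up 0.483% with DMSO and 0.643% with paclitaxel. The DMSO library at 72 h was the lowest and the DMSO library at 24 h the highest. The median member stood at 69.0, 64.1, 44.2 and 65.3 CPM in the same order. Cytosolic ribosomal protein genes (79 genes) took 28.0%, 33.1%, 40.7% and 28.8% of UMIs, the reverse order for DMSO. For each UMI of a mitochondrial ribosomal protein gene there were 33.7, 47.1, 84.2 and 44.8 UMIs of a cytosolic one.

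Levels differed widely among members of what is built as a single particle. In DMSO at 24 h they ran from 3.87 CPM (MRPL38) to 516 CPM (MRPL14), and the 10 highest made up 39.9% of the sum. MRPL14, a large subunit protein at the face that meets the small subunit, stood at 516, 396, 256 and 321 CPM in that order (DMSO then paclitaxel at 24 h, DMSO then paclitaxel at 72 h), which holds for all lists of 4 values. MRPS21, a small subunit protein, was nearly level at 320, 347, 316 and 342 CPM, so that in DMSO at 72 h it was the highest member. MRPL41, MRPL51, MRPL52 and MRPS15 complete the 6 highest by mean level.

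At the other end, MRPL38 was measured at 3.87, 4.49, 3.51 and 6.80 CPM and MRPS24 at 4.87, 4.07, 3.60 and 5.91 CPM. These are the only members with a mean under 10 CPM in all 4 comparisons and are left out of the counts below. The next lowest by mean level were MRPL46, MRPL39, MRPL44 and MRPL30. In GENCODE release 29 on GRCh38, 13 members overlap another protein-coding gene on the same strand, where reads may have been split or dropped: MRPL12, MRPL28, MRPL30, MRPL33, MRPL38, MRPL46, MRPL53, MRPS5, MRPS6, MRPS16, MRPS17, MRPS24 and MRPS28. Their levels are uncertain for that reason. Among them are 4 of the 6 lowest members, but also MRPL12 and MRPL33, with high mean levels of 204 and 196 CPM.

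**Figure D1:**
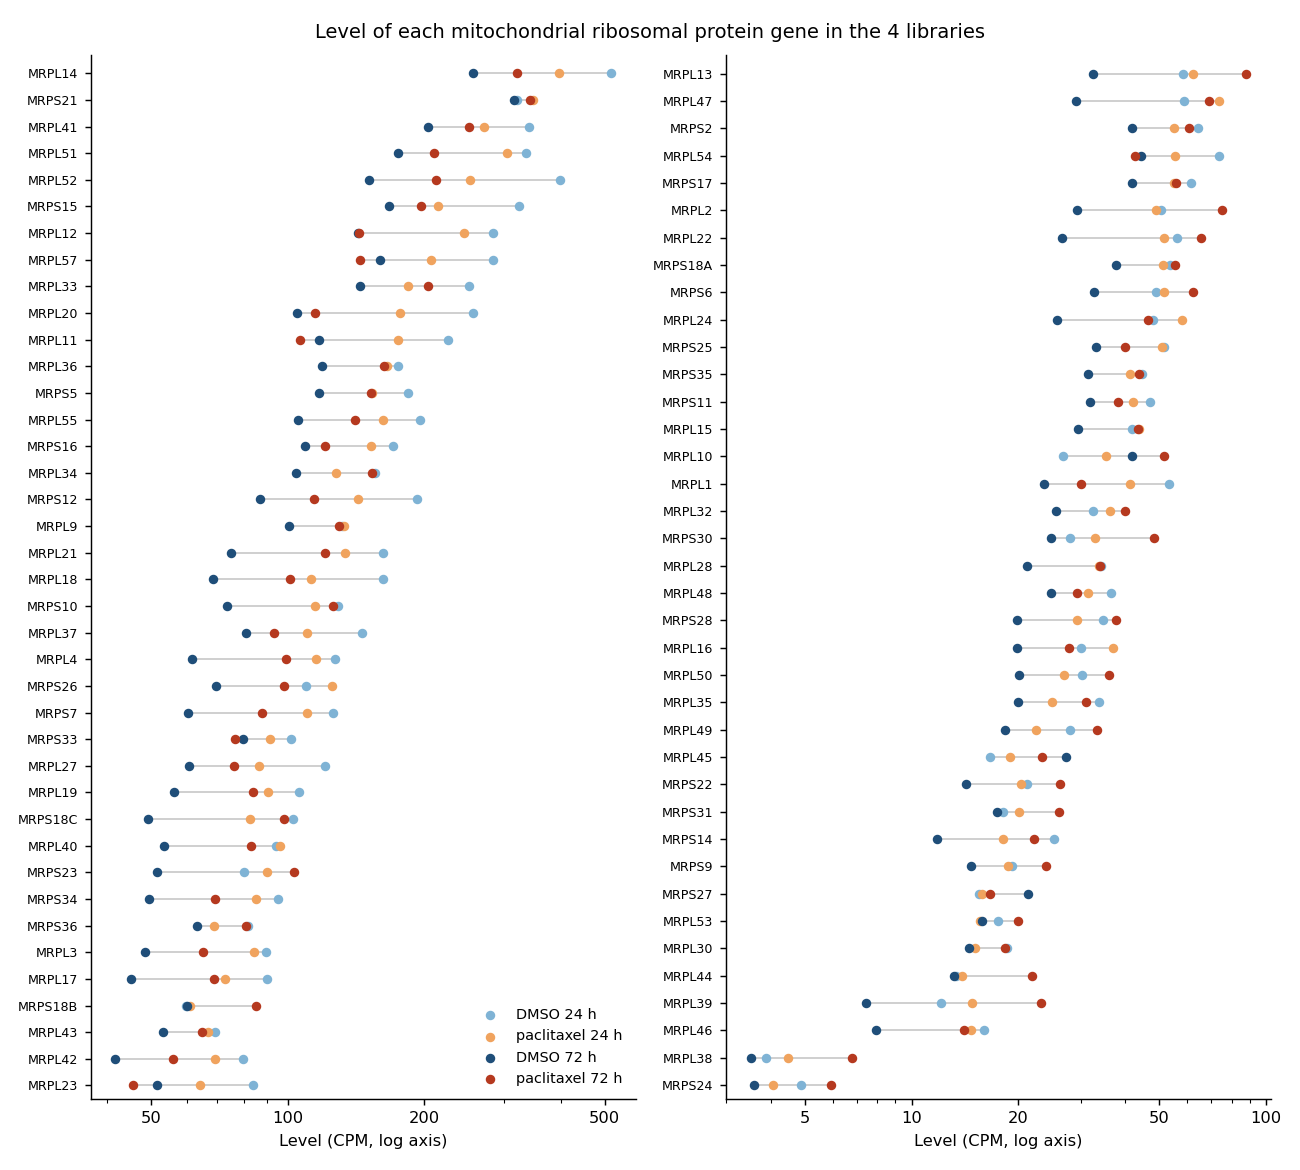
Level of each of the 77 genes in CPM (log axes that differ between the panels), ordered by mean level, with a point per library and a grey line from the lowest to the highest library. For 67 of the 77 the lowest point is DMSO at 72 h (dark blue). MRPL10, MRPL45 and MRPS27 have DMSO at 24 h (light blue) as the lowest. Of members that average 10 CPM or more across the libraries, 65 of 75 (86.7%) were lowest in DMSO at 72 h. So were 50.5% of 8049 genes at that level that are neither members, RPL/RPS nor mitochondrially encoded.

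Of the 4 comparisons, that of the DMSO libraries gave the largest difference. A member is called measured where the 2 libraries compared average 10 CPM or more. Between DMSO at 72 h and DMSO at 24 h, 48 of 74 measured members were lower by at least 1.5-fold with an interval that excluded a ratio of 1, where 25.1% of all genes tested were. In the other direction 2 members were higher, where 6.43% of all genes tested were. The median log2 ratio of the members was -0.72, against -0.29 for other genes, meaning all genes that are neither members, RPL/RPS nor mitochondrially encoded (MT-). The sum over the members in DMSO at 72 h was 0.583 times that at 24 h.

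The scale enters these values: the RPL/RPS genes took 28.0% of UMIs in the first library and 40.7% in the second, which leaves a smaller share of the total for the remaining genes as a whole. A relative log2 ratio is therefore also given, the log2 ratio minus the median of the other genes. On it 26 members were lower and 3 higher past 1.5-fold, where 9.89% and 13% of all genes tested were, and the median was -0.43 with 65 of 74 members under the median of the other genes. Over the total without RPL/RPS and MT- UMIs, the members' sum at 72 h was 0.716 times that at 24 h. On that same scale DMSO at 72 h was the lowest of the 4 libraries for 48 of 75 members that average 10 CPM or more across all 4 (64.0%), against 24.7% of 8049 other genes.

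MRPL52, a large subunit protein with no bacterial counterpart, had the lowest ratio. It stood at 399, 253, 151 and 213 CPM, a log2 ratio of -1.40 [-1.44 to -1.36] for DMSO at 72 h over 24 h. MRPL20, a large subunit protein that in bacteria acts early in assembly, stood at 256, 177, 105 and 115 CPM (-1.29 [-1.34 to -1.25]). MRPL18 stood at 163, 113, 68.3 and 101 CPM (-1.25 [-1.31 to -1.20]). All 3 were highest in DMSO at 24 h and lowest in DMSO at 72 h, with both paclitaxel libraries between. MRPL1, MRPS12 (a protein of the decoding centre) and MRPL21 followed, with log2 ratios of -1.17, -1.15 and -1.11.

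A few members went the other way. MRPL45, which holds the particle at the inner membrane, was measured at 16.6, 18.9, 27.3 and 23.4 CPM, a log2 ratio of 0.72 [0.60 to 0.83] for DMSO at 72 h over 24 h. MRPL10, the anchor of the stalk that recruits translation factors, was measured at 26.7, 35.3, 41.7 and 51.5 CPM (0.65 [0.56 to 0.74]). These were the 2 members counted as higher. MRPS27, a small subunit protein of the pentatricopeptide repeat family, was measured at 15.5, 15.8, 21.3 and 16.7 CPM (0.46 [0.34 to 0.59]), which is under 1.5-fold but past it relative to the other genes (0.75). MRPS18B and MRPS21 had log2 ratios of 0.01 and -0.02, with intervals that included 0.

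The cytosolic genes had the opposite sign. For DMSO at 72 h over 24 h, 47 of 79 were higher and 1 was lower past 1.5-fold, with a median log2 ratio of 0.65 and a relative median of 0.93. RPL10A stood at 1409, 2592, 3795 and 1951 CPM and RPL3 at 2880, 4568, 6717 and 3299 CPM. Both were highest in DMSO at 72 h and lowest in DMSO at 24 h, as RPL/RPS genes in general were: 70 of the 79 had DMSO at 72 h as the highest library and 60 had DMSO at 24 h as the lowest. Among the mitochondrial ribosomal protein genes DMSO at 72 h was the highest library for 2 of 77 and DMSO at 24 h the lowest for 4. Of 8049 other genes that average 10 CPM or more, 9.52% had DMSO at 72 h as the highest library. DMSO at 24 h was the lowest library for 19.9% of them.

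**Figure D2:**
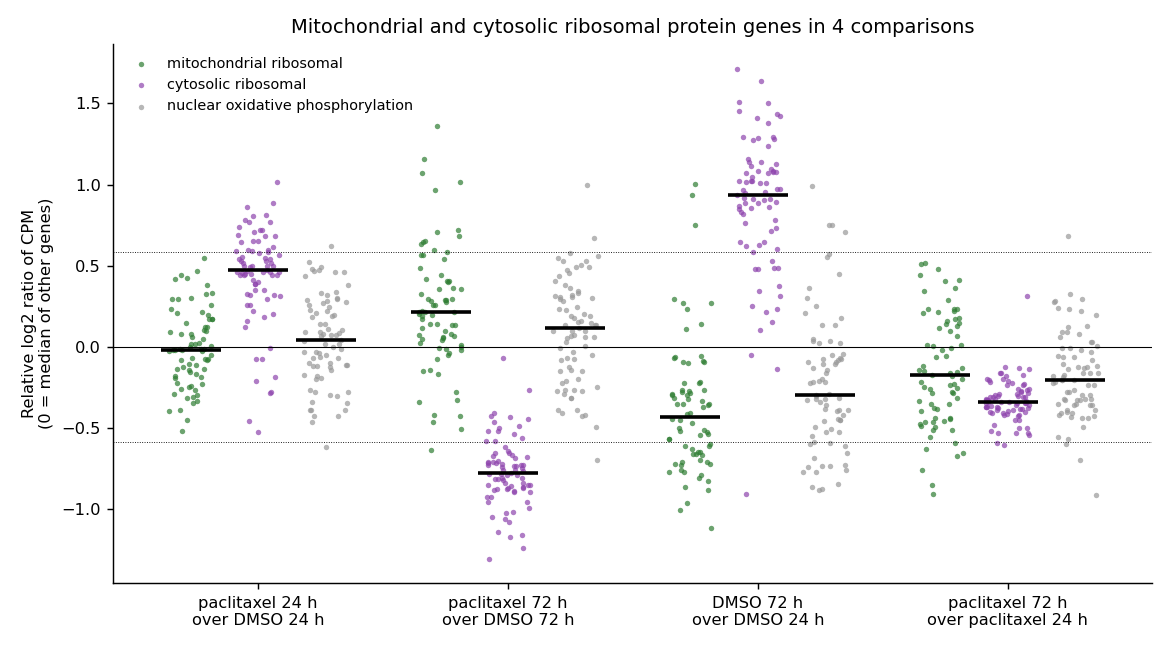
Relative log2 ratio of each measured gene in 4 comparisons (a point per gene, 0 is the median of other genes), for mitochondrial ribosomal (green), cytosolic ribosomal (purple) and nuclear oxidative phosphorylation genes (grey). Black bars are medians and dotted lines mark 1.5-fold; green and purple medians lie at -0.43 and 0.93 for DMSO at 72 h over 24 h, and at 0.21 and -0.78 for paclitaxel over DMSO at 72 h.

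At 24 h the paclitaxel library differed little from DMSO in these genes. No member of 75 was higher past 1.5-fold and 2 were lower (MRPL52 and MRPS15), where 4% and 3.62% of all genes tested were. The median log2 ratio was -0.16, against -0.14 for other genes, and the relative ratios had quartiles of -0.17 and 0.16. Relative to the other genes no member passed 1.5-fold in either direction, where 7.58% of all genes tested did. MRPL52 had a log2 ratio of -0.66 [-0.69 to -0.63] and MRPS15, measured at 323, 214, 167 and 196 CPM, one of -0.59 [-0.63 to -0.56].

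MRPL20, MRPL18, MRPL27 and MRPS14 came next, at -0.53, -0.53, -0.48 and -0.47. The highest ratios belonged to MRPL10 (0.41), MRPL47 (0.33), MRPL16 (0.30), MRPL39 (0.29), MRPL24 (0.28) and MRPS30 (0.24). The summed members were 0.848 times DMSO on the whole total and 0.910 times on the total without RPL/RPS and MT- UMIs. The cytosolic genes had a median of 0.34 in the same comparison, with 9 of 79 higher and 2 lower.

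At 72 h the members were higher in paclitaxel than in DMSO, as was a large share of all genes. Of 75 measured members 26 were higher and none lower past 1.5-fold, where 25.2% and 2.13% of all genes tested were, so the count of higher members (34.7%) lies somewhat above the background. The median log2 ratio was 0.49, against 0.28 for other genes. On the relative scale 12 were higher and 1 lower, where 11.1% and 8.03% of all genes tested were, with a median of 0.21. The summed members were 1.33 times DMSO on the whole total but 1.08 times on the total without RPL/RPS and MT- UMIs.

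MRPL39, a large subunit protein related to threonyl-tRNA synthetases, had the highest ratio. It was measured at 12.1, 14.8, 7.41 and 23.2 CPM, a log2 ratio of 1.64 [1.46 to 1.83] for paclitaxel over DMSO at 72 h. MRPL13 was measured at 58.5, 62.2, 32.4 and 87.8 CPM (1.44 [1.35 to 1.53]). MRPL2, whose bacterial counterpart lies near the peptidyl transferase centre, was measured at 50.5, 49.0, 29.3 and 75.01 CPM (1.36 [1.26 to 1.45]). In all 3 the paclitaxel library at 72 h was the highest of the 4 and DMSO at 72 h the lowest, so the ratio holds a low denominator as well as a high numerator.

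MRPL22 (1.30), MRPL47 and MRPS23 (1.00) followed in that order, and MRPL47 was measured at 58.6, 73.6, 29.1 and 69.1 CPM. The lowest ratios at 72 h were those of MRPS27 (-0.36 [-0.50 to -0.21]), MRPL45 (-0.22), MRPL23 (-0.18), MRPL11 (-0.14), MRPL57 (-0.14) and MRPS33 (-0.06). MRPS27 and MRPL45 are also the members with DMSO at 72 h as their highest library. This comparison and that of the DMSO libraries share DMSO at 72 h, so a low value there enters both with opposite sign. The cytosolic genes had a median of -0.50 in paclitaxel over DMSO at 72 h, with 23 of 79 lower and none higher, and a relative median of -0.78.

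Between the paclitaxel libraries, 72 h over 24 h, the members' median log2 ratio was -0.04, against 0.14 for other genes. Of 75 measured members 3 were higher and 3 lower past 1.5-fold, where 12.2% and 2.65% of all genes tested were. Relative to the other genes none was higher and 7 were lower, where 7.75% and 5.1% of all genes tested were, with a median of -0.17. The 3 lower members were MRPL12 (-0.77), MRPL11 (-0.72) and MRPL20 (-0.63), followed by MRPL51 (-0.54), MRPL57 (-0.52) and MRPL23 (-0.50). The 3 higher members were MRPL39 (0.65), MRPL44 (0.65) and MRPL2 (0.61), followed by MRPL49 (0.58), MRPS30 (0.55) and MRPL10 (0.54).

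The ratios of 72 h over 24 h in DMSO and in paclitaxel share no library. Across the 74 members measured in both, the relative log2 ratios had a Pearson r of 0.51 and a Spearman rho of 0.52, against 0.39 and 0.38 across 7718 other genes and 0.25 and 0.15 across 79 cytosolic genes. Genes of a pair of libraries are not independent, so these are descriptions. Of the 74 members 46 lay under the median of the other genes in both arms, 19 in DMSO alone and 7 above it in both. Of the 7718 other genes themselves, 2501 lay under that median in both arms, 1356 in DMSO alone and 2315 above it in both. The cytosolic genes split differently: 75 of 79 lay above that median in DMSO and under it in paclitaxel.

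**Figure D3:**
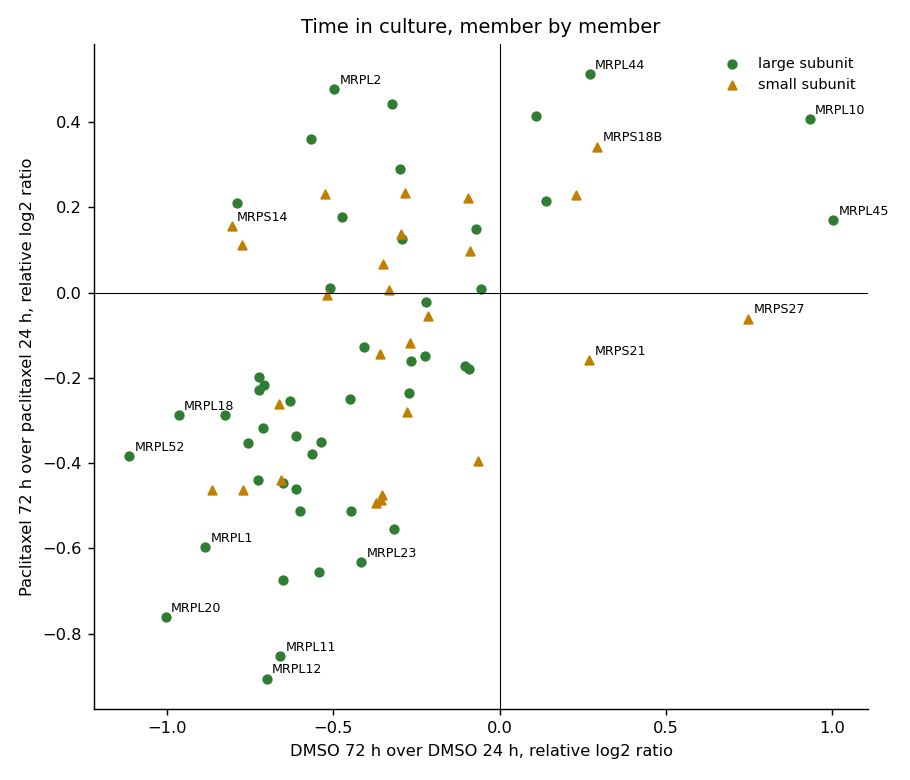
Relative log2 ratio of 72 h over 24 h for the 74 members measured in both arms, DMSO on the horizontal and paclitaxel on the vertical axis, with large subunit members as circles and small subunit members as triangles. In 46 of the 74 both values are under 0, as they are in 2501 of 7718 other genes (not drawn). MRPL20, MRPL11 and MRPL12 are far under 0 on both axes and MRPL10 is above 0 on both.

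By subunit, the large subunit genes had a lower median for DMSO at 72 h over 24 h (-0.81, 34 of 48 lower) than the small subunit genes (-0.63, 14 of 26 lower), where 25.1% of all genes tested were lower. On the relative scale 20 of 48 and 6 of 26 were lower, where 9.89% of all genes tested were. Between the paclitaxel libraries the medians were -0.09 and 0.08. Past 1.5-fold, 3 of 49 large subunit members were higher and 3 lower, where 12.2% and 2.65% of all genes tested were. None of 26 small subunit members passed 1.5-fold in either direction. For paclitaxel over DMSO the subunits had like medians, -0.17 and -0.15 at 24 h and 0.49 in both at 72 h. Members with a bacterial counterpart had a median of -0.81 (32 of 45 lower) for DMSO at 72 h over 24 h, and those without had -0.61 (16 of 29 lower); relative to the other genes 20 of 45 and 6 of 29 were lower. No test of these splits was possible with 1 library per group.

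The stalk, which binds the GTPase factors that drive translation, did not move as a unit. MRPL12, the mitochondrial L7/L12 protein, stood at 284, 245, 143 and 144 CPM, and MRPL11, at the base of the stalk, at 226, 175, 117 and 106 CPM. Both were lower at 72 h than at 24 h past 1.5-fold in both arms, and their log2 ratios of paclitaxel over DMSO at 72 h were 0.00 and -0.14 (MRPL12 is among the genes with a same-strand overlap). MRPL10, the anchor between them, had the reverse order in time in both arms. MRPL54 followed MRPL11 in order of libraries (73.6, 55.5, 44.2 and 42.8 CPM), and MRPL53 was nearly level (17.5, 15.6, 15.8 and 19.9 CPM).

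Of the proteins grouped around the exit of the peptide tunnel, namely MRPL22, MRPL23, MRPL24, MRPL39, MRPL44 and MRPL45, 4 of 6 were higher in paclitaxel than in DMSO at 72 h past 1.5-fold and none lower, where 25.2% of all genes tested were higher. On the relative scale 2 of the 6 were higher, where 11.1% were. MRPL22, at the rim of the exit, was measured at 56.0, 51.3, 26.5 and 65.3 CPM (1.30 [1.20 to 1.40]). MRPL24 was measured at 47.9, 58.0, 25.7 and 46.3 CPM (0.85), and MRPL44, which has a fold like that of RNase III, at 13.3, 13.9, 13.2 and 21.8 CPM (0.72). MRPL39 was the fourth. The log2 ratios of MRPL45 and MRPL23 were -0.22 and -0.18, and MRPL23 was measured at 83.9, 64.1, 51.6 and 45.5 CPM.

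The 3 paralogs of bacterial S18 differed from each other. MRPS18C was measured at 103, 82.4, 49.3 and 98.0 CPM, with a log2 ratio of -1.06 for DMSO at 72 h over 24 h and 0.99 for paclitaxel over DMSO at 72 h. MRPS18A, the paralog of the large subunit, was measured at 53.5, 51.3, 37.6 and 55.5 CPM (-0.51 and 0.56). MRPS18B was measured at 59.6, 61.0, 59.9 and 85.0 CPM (0.01 and 0.50), so 3 of its libraries were level and paclitaxel at 72 h stood above them. Of the members linked to cell death, MRPS30 (28.0, 33.0, 24.7 and 48.3 CPM) was higher in paclitaxel at 72 h (0.97), and MRPL41 (341, 271, 204 and 251 CPM) had a ratio of 0.29.

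Among members, those with higher levels had lower ratios. Spearman's rho between the mean level and the log2 ratio was -0.45 for paclitaxel over DMSO at 24 h, -0.33 at 72 h, -0.45 for DMSO at 72 h over 24 h and -0.51 for paclitaxel at 72 h over 24 h. Across other genes it was -0.05, 0.07, -0.19 and -0.12. For DMSO at 72 h over 24 h, the 22 members above 100 CPM had a median relative log2 ratio of -0.59 and the 52 under it one of -0.34, whereas other genes had -0.20 above 100 CPM and 0.02 under it. These are values across genes of the same libraries, and the part of the level in the ratios was not tested.

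Other nuclear genes of the mitochondrial translation system were compared through lists of known components. The 6 mitochondrial ribosome subunits that carry other names (AURKAIP1, CHCHD1, DAP3, GADD45GIP1, ICT1 and PTCD3) had medians of -0.26 for paclitaxel over DMSO at 24 h, 0.28 at 72 h, -0.93 for DMSO at 72 h over 24 h and -0.12 for paclitaxel at 72 h over 24 h. Relative to the other genes these medians were -0.13, -0.006, -0.64 and -0.26, so at 72 h the drug ratio was like that of other genes. GADD45GIP1, a large subunit protein, stood at 333, 240, 147 and 226 CPM. In DMSO at 72 h over 24 h, 4 of these 6 were lower, as were 4 of 10 translation factors (median -0.57), 7 of 19 assembly factors (-0.51, with 1 higher) and 3 of 7 tRNA synthetases (-0.50), where 25.1% of all genes tested were lower. On the relative scale the counts lower were 4 of 6, 2 of 10, 4 of 19 (with 3 higher) and 1 of 7, where 9.89% of all genes tested were. The synthetase list includes GARS and KARS, which also serve the cytosol. With CARS2 they had the largest absolute ratios of that list in this comparison. NOA1, a GTPase of small subunit assembly, was the assembly factor that was higher, at 25.1, 37.9, 58.7 and 53.7 CPM.

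Import genes and nuclear genes of oxidative phosphorylation lay on the same side as the members in DMSO over time, on both scales. Of 20 measured import genes 14 were lower and 1 higher, with a median of -0.93 and a relative median of -0.65. TOMM40, the pore of the outer membrane, stood at 203, 151, 70.9 and 100.2 CPM. SLIRP, which stabilises mitochondrial mRNA and is counted with the assembly factors, stood at 527, 346, 195 and 315 CPM. Of 77 nuclear genes of oxidative phosphorylation 39 were lower and 1 higher, with a median of -0.59 and a relative median of -0.30. The 13 mitochondrially encoded mRNA genes, the products of whose transcripts the particle makes, had a median of -0.23, with 1 of 13 (MT-ND6) lower and none higher. Relative to the other genes their median was 0.05, with 8 of 13 above 0, so their sign turned with the scale. At 72 h, paclitaxel over DMSO, the medians were 0.52 for import, 0.40 for nuclear oxidative phosphorylation and 0.03 for the mitochondrially encoded genes. The median of the other genes was 0.28, so the relative medians were 0.24, 0.11 and -0.25. Of the 13 mitochondrially encoded genes 10 lay under the median of the other genes.

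The level was also read cell by cell, with each cell thinned to 12000 UMIs from genes other than RPL/RPS and MT- genes. This kept 1087, 749, 760 and 494 cells and left out 14, 27, 23 and 26 shallower ones. The median cell held 150, 129, 108 and 114 member UMIs, with quartiles of 133 to 168, 111 to 152, 97 to 122 and 99 to 131. Without thinning the median cell gave 0.811%, 0.608%, 0.468% and 0.607% of its UMIs to the members. Paclitaxel at 72 h thus lay nearer to DMSO at 72 h than to DMSO at 24 h on the thinned scale. The spread between cells was wider in both paclitaxel libraries (coefficients of variation of 23.5% and 22.6%) than in DMSO (17.7% and 17.2%), where counting alone would give 8.15% to 9.55%.

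Cells that held more member UMIs held more UMIs of nuclear oxidative phosphorylation genes, with Spearman's rho of 0.50, 0.66, 0.50 and 0.53 over the thinned cells of each library. The counts share the cell's fixed total. Against the RPL/RPS share of the cell, rho was -0.17, -0.46, -0.18 and 0.03. In paclitaxel at 24 h, cells were put in 3 bins of near equal size by RPL/RPS share. The bin with the lowest share (median 25.3%) held a median of 151 member UMIs per cell and the bin with the highest (median 41.1%, 250 cells) held 116.5. The first value is like the median of DMSO at 24 h and the second lies between the paclitaxel median and that of DMSO at 72 h. Cells under 2% MT- UMIs, 47 of the thinned cells of paclitaxel at 72 h, held a median of 112, against 114 in the rest of that library.

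**Figure D4:**
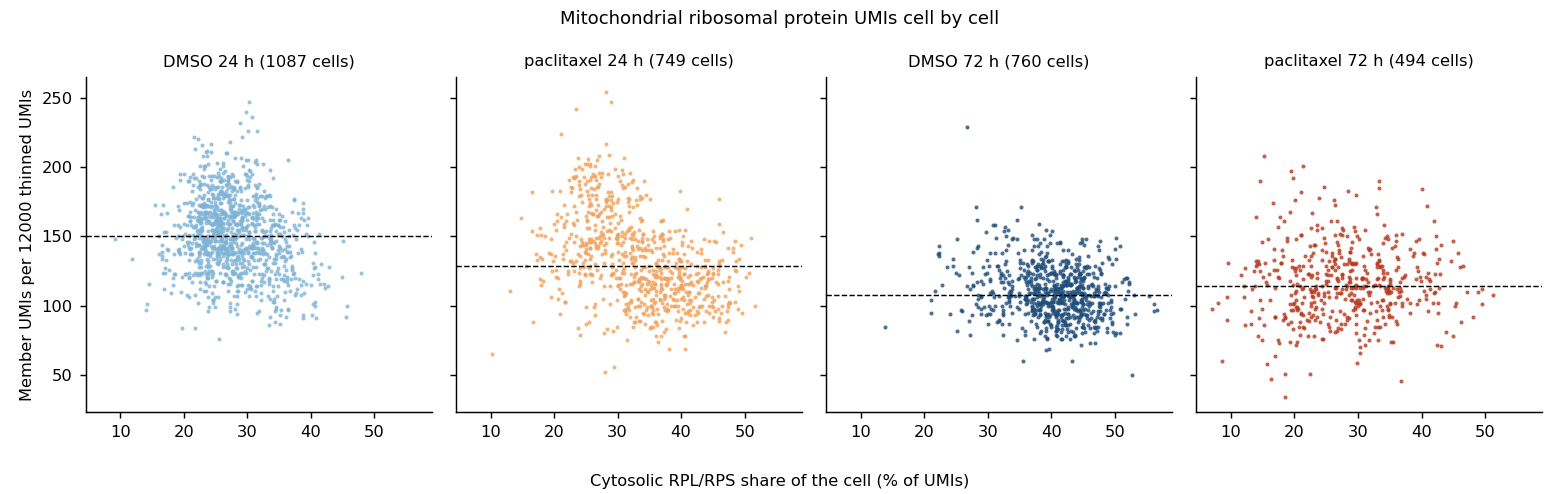
Member UMIs per 12000 thinned UMIs of each cell (vertical) against the cell's RPL/RPS share of all UMIs in % (horizontal), with a panel per library, a point per cell and the library's median as a dashed line (150, 129, 108 and 114). In paclitaxel at 24 h the points fall from upper left to lower right, while in paclitaxel at 72 h they show no slope.

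Called cell cycle phases, which are ranges of a score, differed between the libraries: cells called G1 were 11.8%, 34.2%, 49.7% and 63.8% of the thinned cells. In DMSO at 24 h, cells called G1 held a median of 125.5 member UMIs, S phase cells 151 and G2/M phase cells 153. In DMSO at 72 h the phases were level, at 108, 109 and 107. For DMSO at 72 h over 24 h within a called phase, the relative median over members was -0.34 in G1, -0.46 in S phase and -0.44 in G2/M phase. On the relative scale 11 of 73 members were lower past 1.5-fold in G1, where 8.19% of all genes tested there were. In S phase 24 of 74 were lower, where 10.1% were, and in G2/M phase 27 of 75, where 7.46% were. The relative median was under 0 in each phase and nearest to 0 in G1.

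The 77 genes lie on 21 autosomes in GENCODE release 29. For 29 of them (37.7%) the start of another protein-coding gene lies within 1000 bp on the opposite strand, against 24.1% of the cytosolic genes and 13.0% of all protein-coding genes. MRPL46 (chr15:88459476-88467419, minus strand) and MRPS11 (chr15:88467453-88480773, plus strand) form such a pair with starts 34 bp apart. MRPL46 stood at 16.0, 14.7, 7.94 and 14.1 CPM and MRPS11 at 47.0, 42.3, 31.8 and 38.3 CPM. Both had the same order of libraries, with log2 ratios of -1.01 and -0.57 for DMSO at 72 h over 24 h. MRPL46 is among the genes with a same-strand overlap.

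RefSeq promoters of 300 bases (250 before and 50 after the start) were found for 68 members and 63 cytosolic genes. The ETS-type letters CCGGAAGT, on either strand, occurred in 11 members (16.2%), in 14.3% of the cytosolic genes and in 6.19% of 15842 promoters of protein-coding genes. The palindromic NRF1 consensus occurred in 1 member (1.47%, against 1.75% of all), the E-box CACGTG in 8.82% (8.88% of all) and CCAAT in 29.4% (36.4% of all). The 10 measured members with the ETS-type letters had a median relative log2 ratio of -0.66 (quartiles -0.72 and -0.39) for DMSO at 72 h over 24 h. The 55 without had -0.36 (quartiles -0.66 and -0.22), so the ranges overlapped. For CCAAT the order was reversed, with -0.31 in 20 members with it and -0.45 in 45 without. For the E-box the medians were -0.45 in 6 members and -0.41 in 59. The part of these letters in the ratios was not tested. A start like that of a TOP mRNA, a C followed by 4 pyrimidines from the first transcribed base, was found in 5 members (7.35%), in 43 cytosolic genes (68.3%) and in 4.60% of all promoters. Those 5 members had relative log2 ratios of 1.00 (MRPL45), 0.75 (MRPS27), 0.27 (MRPL44), 0.14 (MRPL53) and -0.07 (MRPS33) for DMSO at 72 h over 24 h. A match describes letters in this window and not a bound site.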

How the data were processed

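The authors deposited 1 table of raw UMI counts for each library, by gene symbol and barcode. The submitters' processing notes name Cell Ranger 2.0 and GRCh38. The selection of cells and the handling of reads shared between gene copies are not given in the sources used here. Tables list a gene when about 1% or more of their cells held it, so a missing gene is not a measured 0; it was set to 1 UMI less than the fewest cells of a listed gene (12, 8, 8 and 6), and counts under 3 were set to 3. A count of 0 would allow 0.0417 to 0.0861 CPM.

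Barcodes with at least 500 genes and under 20% MT- UMIs were kept (3180 of 3194; all 14 left out exceeded the MT- limit). No doublet caller was run. UMIs were summed per library and scaled to CPM. Ratios carry exact (Clopper-Pearson) 95% intervals for 2 Poisson counts. These intervals describe counting error alone, and no p-value was computed, since each group is 1 library. A gene was counted as higher or lower at 1.5-fold or more, with an interval excluding 1 and a mean of at least 10 CPM. The ratio script was tested on simulated data. Named members are the 6 highest and 6 lowest by ratio in each comparison and by level, and every member of the small role groups (41 in all); of each other list up to 3 genes with the largest ratios were eligible. MRPS11, and members listed for their overlap, were named after their values or positions were seen. The members and all lists were chosen with earlier results of these data known. Alternatives were other totals, trimmed mean of M-values (TMM) factors, filters, folds and cell subsets, of which the cell subsets by S and G2/M phase, by high UMIs, and the subtraction of the other genes' median as a count rule were chosen after seeing the data. Phases were called with scanpy 1.11.5 (42 and 54 list genes). Python 3.11.15, numpy 2.4.6, scipy 1.17.1, pandas 2.3.3, R 4.3.3 and edgeR 4.0.16 (TMM factors only) were used.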

Additional observations from a re-analysis of the deposited data

Results flagged for a closer look

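The members' median log2 ratio of paclitaxel over DMSO was 0.49 at 72 h and -0.16 at 24 h, with 68 of 75 members above 0 at 72 h and 55 of 75 (73.3%) under 0 at 24 h. Of all genes tested 74.5% were above 0 at 72 h and 67.6% under 0 at 24 h, and the median of the other genes turned in the same way, from -0.14 to 0.28. The cytosolic ribosomal protein genes had -0.50 at 72 h and 0.34 at 24 h, with 77 of 79 under 0 at 72 h and 69 of 79 above 0 at 24 h. Both lists are given here because the sign of the drug ratio turned between the times. With 1 library per group the difference between the times was not tested. On the relative scale the members' medians were 0.21 at 72 h and -0.02 at 24 h, and those of the cytosolic genes -0.78 and 0.48.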

How the results depend on the processing

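The members' median relative log2 ratio moved as follows. For paclitaxel over DMSO at 24 h it was -0.02 and became -0.11 without cells above 2 times the median UMIs (297 cells in all), -0.14 in S phase cells and 0.074 in G2/M phase cells, where its sign turned. At 72 h it was 0.21 and fell to 0.097 over members of at least 50 CPM. For DMSO at 72 h over 24 h it was -0.43 and became -0.34 in G1 cells. For paclitaxel at 72 h over 24 h it was -0.17 and became -0.067 in G1 cells, -0.10 without cells of high UMIs and -0.021 in S phase cells.

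Counts past the fold depended more on the scale. At 24 h, paclitaxel over DMSO, 2 members were lower. That count was 0 with totals without RPL/RPS and MT- UMIs, with TMM factors, in G2/M phase cells and after subtracting the other genes' median, 4 without cells of high UMIs, 10 in S phase cells and 18 at a lower fold threshold (a ratio of 5 to 4), where 2 were higher. At 72 h, paclitaxel over DMSO, the 26 higher became 11 with those totals, 12 with TMM, 12 after subtraction, 9 at 50 CPM and 55 at the lower fold; 1 was lower under the first 3 and at the lower fold. For DMSO at 72 h over 24 h the 48 lower became 26 with those totals, 26 after subtraction and 30 in G1 cells, and the 2 higher became 0 at 50 CPM, 1 in S phase cells and 0 in G2/M phase cells. For paclitaxel at 72 h over 24 h the 3 higher became 0 with those totals, with TMM and after subtraction, 1 at 50 CPM, 1 without cells under 2% MT-, 6 without cells of high UMIs, 7 with the mean of per-cell CPM, 7 in G1 cells, 9 in S phase cells and 15 at the lower fold. The 3 lower became 6 with those totals, 12 with TMM, 7 after subtraction, 8 in G2/M phase cells, 0 in G1 and S phase cells and 16 at the lower fold. Within phases, these shares of all genes tested were lower. For paclitaxel over DMSO at 24 h they were 9.57% in S phase and 1.70% in G2/M phase. For DMSO at 72 h over 24 h, 15.5% were lower in G1. For paclitaxel at 72 h over 24 h the shares were 2.51% in G2/M phase, 0.976% in G1 and 0.768% in S phase. Shares of all genes were not computed for the other totals, folds and filters, nor for higher counts within phases. The cause of the shifts in the members' counts was not tested. Of 458 ratios of named members over 10 settings, 436 kept their sign. These members were picked for the highest and lowest ratios in the same data, so a kept sign says little about them. Of the 458 ratios 218 lay outside the main interval, which covers counting error only. Of the 22 signs that turned, 9 were in S phase cells. No paired analysis was possible because each group was 1 library. Depth limits the 2 members under 10 CPM.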
